A study of Mus musculus with 15 samples.

Results

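Sult1e1, which encodes estrogen sulfotransferase, was examined in female mouse liver together with 7 other genes of cytosolic sulfotransferases, Sult1a1, Sult1b1, Sult1c2, Sult1d1, Sult2a8, Sult3a1 and Sult5a1. These 8 genes were taken by symbol from 55450 gene IDs, and 8 of 8 passed the filter on low counts that 15808 genes passed. Sult1e1 was chosen by its rise between the Old and Adult groups in earlier results of these counts, and the others were listed with it, so values of these 8 genes in that contrast are given below as a description without a test. The comparisons that include the PDX group share mice with it: PDX versus Adult shares the Adult mice, and PDX versus Old shares the Old mice. Liver mRNA was sequenced from 15 female C57BL/6 mice obtained from the National Institute on Aging, 5 per group and 1 library per mouse. The Adult group (A1 to A5) was aged 6 months and the Old group (O1 to O5) 22 months at the start, and corn oil was given to both by daily gavage. The PDX group (P1 to P5), also aged 22 months, was given protectin DX, a lipid mediator derived from docosahexaenoic acid, at 30 ng per g of body weight in the same oil. Ages named below are those at the start, and livers were taken after the gavage, when all mice were older. No group of 22-month mice without gavage was analysed here, so all 3 groups share the handling and the oil.

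Cytosolic sulfotransferases transfer a sulfonate group from the donor PAPS to hydroxyl or amine groups of steroids, bile acids, catecholamines and xenobiotics, which makes them more water-soluble and, for most hormones, inactive. The liver is a main site of this conjugation. SULT1E1 has a very high affinity for estrogens, its mRNA is low in the liver of healthy adult mice, and it is known to be elevated in mouse models of diabetes. In the mouse, many SULT2A and SULT3A genes are expressed more in female than in male liver.

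The libraries held 22424383 to 36070835 counted read pairs in Adult mice, 25480180 to 29069346 in Old mice and 26113995 to 30139181 in PDX mice. Levels are given as counts per 1000000 counted pairs (CPM) on scaled library sizes, and as CPM per kb of exon where genes are compared with each other. The tissue label was checked with hepatocyte markers. The summed CPM of 7 hepatocyte genes lay between 139436 and 155760 in the Adult group, with Alb as the most abundant gene in every mouse and no marker at 0. Old mice O2 and O5 stood apart. Their hepatocyte sums were 101244 and 74886 CPM, against 151893 to 236693 CPM in the other 3 Old mice and 152909 to 198558 CPM in the PDX group. In O5 Alb gave 34724 CPM of the sum, while its summed acute-phase genes, described below, were at 82970 CPM, the highest of the Old group. O2 also had 153 CPM of T and NK cell markers, of which Cd4 alone had 116 CPM, against 1.59 to 20.5 CPM in the other mice. It was the highest mouse as well for Kupffer and macrophage markers (3237 CPM), erythroid markers (1042 CPM) and neutrophil and myeloid progenitor markers (223 CPM). The main results are given with and without O2 and O5. Since the RNA came from pieces of whole liver, fewer cells of a type and less RNA of the marker genes per cell cannot be told apart.

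Sult1e1, Sult1d1 and Sult1b1 lie side by side on chromosome 5 (GRCm38), all on the minus strand. Sult1e1 spans chr5:87575969-87591594, Sult1d1 chr5:87554645-87569027 and Sult1b1 chr5:87513339-87538195. The bases upstream of their starts are shown because these neighbouring genes had different values in the 22-month mice. The sequences are from RefSeq (GRCm38.p6), read 5′ to 3′ in the direction of transcription and ending before the annotated start. Capitals mark the nuclear receptor half-site AGGTCA, which reads TGACCT where it lies on the other strand.
Sult1e1, chr5:87591612-87591861, minus strand: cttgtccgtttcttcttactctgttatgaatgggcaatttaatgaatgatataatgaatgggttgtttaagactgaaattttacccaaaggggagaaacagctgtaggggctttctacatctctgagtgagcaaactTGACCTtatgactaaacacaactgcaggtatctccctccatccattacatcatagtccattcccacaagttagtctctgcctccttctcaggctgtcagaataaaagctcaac
Sult1d1, chr5:87569028-87569256, minus strand: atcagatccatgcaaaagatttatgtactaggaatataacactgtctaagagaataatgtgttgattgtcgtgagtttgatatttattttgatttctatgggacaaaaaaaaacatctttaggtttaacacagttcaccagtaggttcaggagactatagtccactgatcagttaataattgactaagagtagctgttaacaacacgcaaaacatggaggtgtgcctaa
Sult1b1, chr5:87538196-87538445, minus strand: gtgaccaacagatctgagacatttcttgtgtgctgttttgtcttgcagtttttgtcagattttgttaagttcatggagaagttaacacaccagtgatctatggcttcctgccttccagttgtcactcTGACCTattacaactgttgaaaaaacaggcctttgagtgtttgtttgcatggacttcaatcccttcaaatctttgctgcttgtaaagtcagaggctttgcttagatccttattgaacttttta
The half-site began 113 bases before the end of the window in Sult1e1 and 123 bases before it in Sult1b1, and was not in the Sult1d1 window. These letters occur in 14.0% of 32851 promoter windows of mouse genes, searched on both strands. The windows of the 3 genes held no match on either strand to TATAAA (12.4% of all windows), TGTTTAC (3.17%), TTCNNNGAA (7.02%) or TTGCNNAA (9.56%). A match is a stretch of letters and not a measured binding site.

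Sult1e1 was close to undetected in every Adult liver and clearly present in every 22-month liver. The counts of read pairs were 20, 14, 13, 12 and 6 in A1 to A5. They were 196, 1604, 256, 376 and 5892 in O1 to O5, and 1899, 2126, 1153, 72 and 258 in P1 to P5. No mouse of either 22-month group overlapped the Adult group, and both 22-month groups were spread widely, with the highest level in O5 (212.5 CPM) and the lowest in P4 (2.57 CPM). Sult1e1 was 0.452 ± 0.167 CPM (SD, n = 5) in Adult, 58.3 ± 87.7 CPM in Old and 41.6 ± 37.6 CPM in PDX. The median of the PDX group was 73.7 times that of the Adult group, and the median of the Old group 28.3 times. Between PDX and Adult, Sult1e1 rose by 6.53 on the log2 scale (SE 1.22, adjusted p = 0.0115 in edgeR's quasi-likelihood test), higher in 5 of 5 mice. Without O2 and O5, which belong to neither group but are in the fit of 15 mice, the difference was 6.56 (adjusted p = 0.000344). No 50-base stretch of the Sult1e1 exons occurs unchanged in another gene. Stretches that nearly match were not searched.

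Of the 8 genes, 1 was called between PDX and Adult at an adjusted p under 0.05 (Sult1e1, higher), beside 2.66% of all genes tested. Since the Adult mice also entered the choice of Sult1e1, this call is a description. Between Old and Adult, the contrast behind the choice, 2 were past that threshold beside 6.78% of all genes, and 3 without O2 and O5 beside 7.12%, and nothing is read from these counts. The groups did not overlap for 3 of 8 genes between Old and Adult, where 8.13% of all genes showed this, and for 3 of 8 between PDX and Adult, where 19.9% did. Both comparisons with the Adult group gave the same 3 genes, Sult1e1, Sult1d1 and Sult2a8, from control mice that they share. The median log2 fold change of the 8 genes between PDX and Adult was -0.06, against -0.01 for all genes tested.

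**Figure D1:**
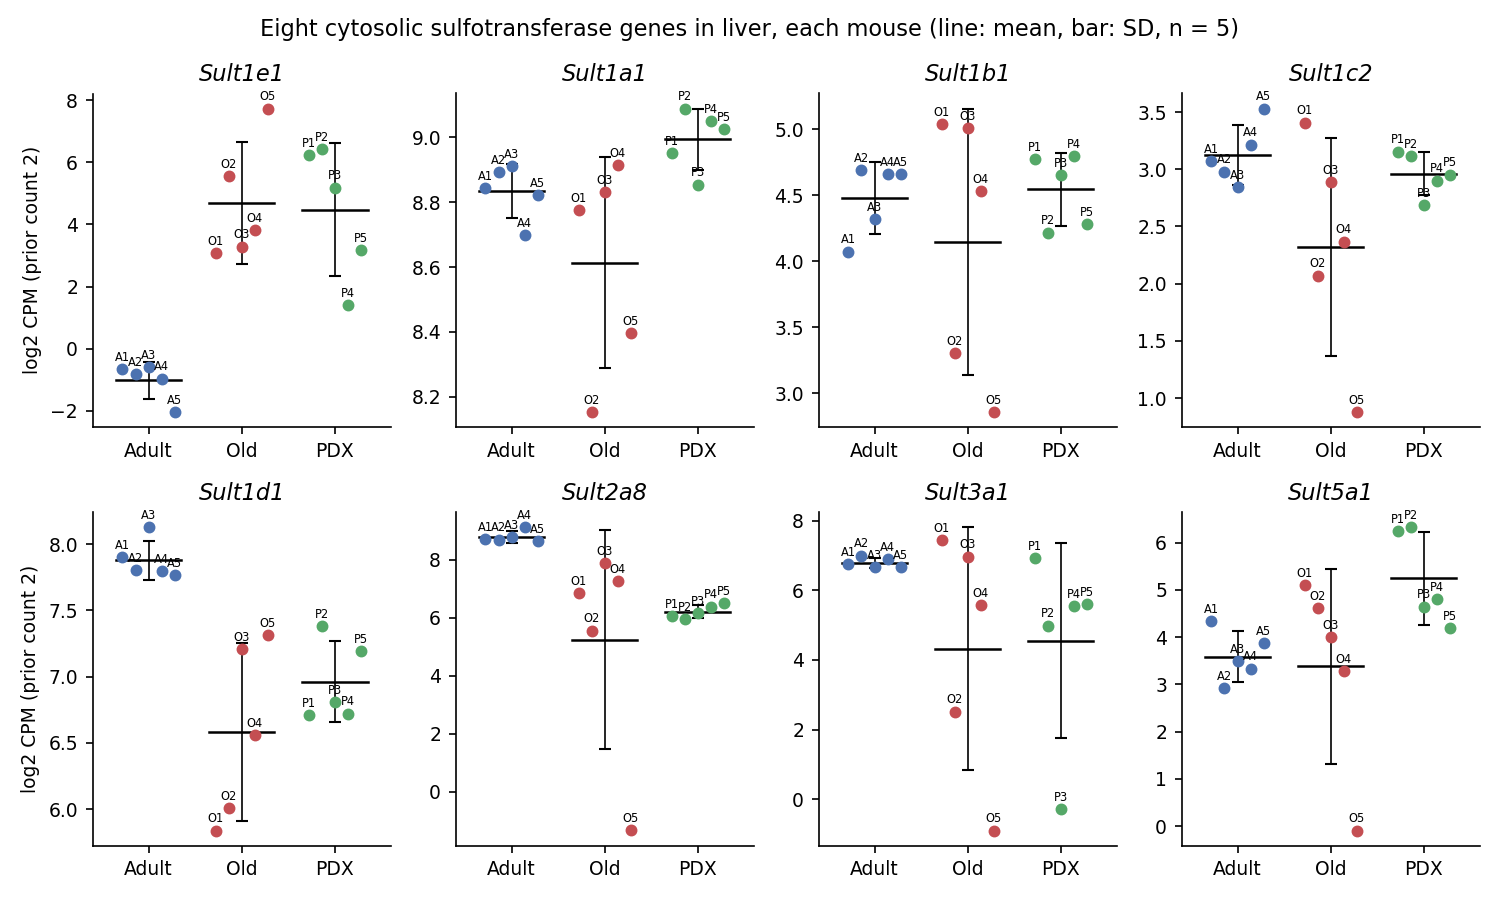
Level of each of the 8 genes in each mouse, as log2 CPM with a prior count of 2 (y axis, a separate range per gene), by group (x axis). Points are mice, lines are group means and bars are SD (n = 5). Sult1e1 in the Adult group lies below all 22-month mice, Sult1d1 and Sult2a8 in the Adult group lie above all of them, and O5 is the lowest mouse in 5 of the 8 panels.

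Sult1d1, which conjugates catecholamines, and Sult2a8, a bile acid sulfotransferase, were lower in every 22-month mouse than in any Adult mouse. Sult1d1 was at 239, 223, 280, 222 and 218 CPM in A1 to A5. It was at 57.2, 64.4, 148, 94.1 and 159 CPM in O1 to O5, and at 105, 167, 112, 105 and 146 CPM in P1 to P5. The PDX mice were thus at 0.501 times the Adult level by medians, and only P2 was above the range of the Old mice. Between PDX and Adult the log2 fold change of Sult1d1 was -0.90 (SE 0.26, adjusted p = 0.0776 in edgeR), which missed the threshold, and without O2 and O5 it was -0.88 (adjusted p = 0.00812). Sult1d1 lies between Sult1e1 and Sult1b1, so the lower gene was the direct neighbour of the higher one.

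Sult2a8 (chr7:14410686-14446769) was at 422, 415, 439, 562 and 402 CPM in A1 to A5. It was at 115, 47.3, 238, 154 and 0.325 CPM in O1 to O5, the last from 9 read pairs. O5 also stood apart on sex-biased genes, with a summed level of 197 CPM over 9 female-biased genes against at least 1534 CPM in every other mouse, and 515 CPM over 10 male-biased genes, most of it Cyp2d9, against 72.8 to 182 CPM. The part of this in its Sult2a8 and Sult3a1 levels was not tested. In P1 to P5 Sult2a8 was at 67.1, 61.7, 71.2, 83.6 and 91.1 CPM, a SD of 12.1 CPM against 92.8 CPM in Old. The log2 fold change between PDX and Adult was -2.58 (SE 0.81, adjusted p = 0.0993 in edgeR) with O2 and O5 in the fit, and -2.56 (adjusted p = 8.16e-06) without them. Without O5 alone it was -2.58 (adjusted p = 0.000447), so the fold was the same and the call depended on a mouse outside both groups.

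Sult5a1 had its highest levels in PDX livers. It (chr8:123140192-123158315) was at 75.5, 80.3, 24.9, 28.0 and 18.2 CPM in P1 to P5, at 34.4, 24.4, 16.0, 9.62 and 0.866 CPM in O1 to O5, and between 7.47 and 20.2 CPM in the Adult group. P5 fell within the Adult range, and the groups overlapped. The log2 fold change between PDX and Adult was 1.84 (SE 0.65, adjusted p = 0.133), and 1.85 (adjusted p = 0.00979) without O2 and O5, where 24.6% of all genes were called. Sult3a1 (chr10:33857721-33879532), an amine sulfotransferase, was tight in the Adult group at 101 to 127 CPM and ranged from 0.469 to 174 CPM in Old and from 0.757 to 122 CPM in PDX. The lowest of these came from 13 read pairs in O5 and 24 in P3, and the difference between PDX and Adult was -1.15 (SE 1.05, adjusted p = 0.577). Leaving out single mice gave -1.80 to -0.84 for this difference.

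The remaining 3 genes had PDX means close to their Adult means. Sult1a1 (chr7:126672865-126676432), the main phenol sulfotransferase, was 457 ± 25.9 CPM (SD, n = 5) in Adult, 399 ± 84.6 in Old and 511 ± 32.4 in PDX, a log2 fold change of 0.16 between PDX and Adult (SE 0.15, adjusted p = 0.586). Sult1b1, which acts on phenols and thyroid hormones, was 22.6 ± 4.04, 21.0 ± 12.1 and 23.6 ± 4.38 CPM in the same order (0.06, SE 0.34, adjusted p = 0.942). Sult1c2 (chr17:53829637-53846339) was 8.79 ± 1.69, 5.77 ± 3.33 and 7.77 ± 0.990 CPM (-0.18, SE 0.33, adjusted p = 0.813). In the Old group the SD of each of these genes was wider than in the other groups, and O2 and O5 were its lowest mice for all 3.

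The treatment itself was compared between PDX and Old at the same age. At an adjusted p under 0.25, 0 of 8 genes were called, beside 0% of all genes tested (834 genes had an unadjusted p under 0.05 in edgeR, and the Wald test of DESeq2 called 1 gene). The groups did not overlap for 0 of 8 genes, beside 0.342% of all genes. Sult1e1 was lower in PDX by 0.49 on the log2 scale with an SE of 0.90 (adjusted p = 0.894), and this sign turned without O2 and O5, where it was 1.97 higher (adjusted p = 0.463). By medians Sult1e1 was 2.6 times as high in PDX as in Old, and by means 0.714 times. Sult5a1 had the largest log2 difference of the 8, 1.41 higher in PDX (SE 0.64, adjusted p = 0.793 in edgeR). Sult1a1 was 0.35 higher (SE 0.15, adjusted p = 0.793), and the lowest Old mice were again O2 and O5, at 285 and 337 CPM, against 463 to 544 CPM in PDX.

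Per kb of exon, Sult1a1 was the most abundant of the 8 in each group, at 303 ± 17.2 (SD, n = 5), 265 ± 56.1 and 339 ± 21.5 CPM per kb in Adult, Old and PDX. Sult1e1 was the least abundant in Adult, at 0.364 ± 0.135 CPM per kb, and took the third place in Old (46.9 ± 70.6) and the fourth in PDX (33.5 ± 30.2). Its place in Old came from O5: without that mouse Sult1e1 took the fifth place, at 15.9 ± 14.7 CPM per kb (SD, n = 4), and without O2 and O5 it came after Sult1b1, at 8.57 ± 2.38 (n = 3). In Adult the order was Sult1a1, Sult2a8, Sult1d1, Sult3a1, Sult1b1, Sult1c2, Sult5a1 and Sult1e1. Sult1d1 (96.1 ± 10.4 CPM per kb) and Sult3a1 (95.9 ± 9.81) did not differ there beyond their spread, nor did Sult1c2 (4.76 ± 0.914) and Sult5a1 (2.87 ± 1.11) separate by more than their summed SDs. In Old the 4 genes after Sult1a1, which were Sult3a1, Sult1e1, Sult1d1 and Sult2a8 (33.9 ± 28.3), overlapped in their spread. In PDX the same held for Sult1d1 (51.6 ± 11.4), Sult3a1 (43.1 ± 38.5) and Sult1e1, and Sult2a8 (22.8 ± 3.69) lay within the spread of Sult1e1 and Sult3a1.

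The family holds 13 further cytosolic sulfotransferases in the counts, of which 9 passed the filter. Between PDX and Adult, 1 was higher and 2 were lower at an adjusted p under 0.05, beside 2.66% of all genes, with a median log2 fold change of 0.86 against -0.01 for all genes. Without O2 and O5, 4 were higher and 2 lower, in a fit that called 24.6% of all genes. The 2 lower genes were hydroxysteroid sulfotransferases of the chromosome 7 cluster. Sult2a6 had 257, 147, 316, 97 and 349 read pairs in A1 to A5 and between 0 and 2 in each 22-month mouse. There O5 had 2, P1, P2 and P3 had 1 each and the other 6 had 0. Sult2a4 had 52 to 261 read pairs in the Adult group, 3 to 9 in Old and 5 to 11 in PDX. Its log2 fold change was -4.27 between PDX and Adult (SE 0.47). Sult4a1, known from the brain, was the higher gene, with 0 to 2 read pairs in Adult and 12 to 198 in PDX, while the Old mice ranged from 0 to 181. All 3 genes passed the filter through the mice in which they were high. Their levels are therefore a description, and no test is read from them.

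The related Sult2a1 and Sult2a2 had higher means in the 22-month mice but missed the threshold between PDX and Adult with all 15 mice in the fit. Sult2a1 (114 ± 102 CPM in Adult, 525 ± 294 in Old and 523 ± 90.1 in PDX, SD, n = 5) and Sult2a2 (61.5 ± 34.6, 246.0 ± 96.1 and 234 ± 146 CPM) spread widely within the groups. Between PDX and Adult the log2 fold changes were 2.20 (SE 0.64, adjusted p = 0.0774) and 1.93 (SE 0.50, adjusted p = 0.0553), and without O2 and O5 they were 2.22 (adjusted p = 0.0174) and 1.95 (adjusted p = 0.0101). The fit without these 2 mice called 24.6% of all genes, against 2.66% with all 15. Adult mice A2 and A4 had the lowest Sult2a1, at 29.2 and 11.3 CPM, against 85.4 to 229 CPM in A1, A3 and A5. Of the 50-base stretches of Sult2a2 exons, 62.1% occur in another gene, mostly Sult2a1, and 33.2% of those of Sult2a1, so reads of this pair could be lost or divided. The shares were 25.5% for Sult2a4 and 6.63% for Sult2a6.

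**Figure D2:**
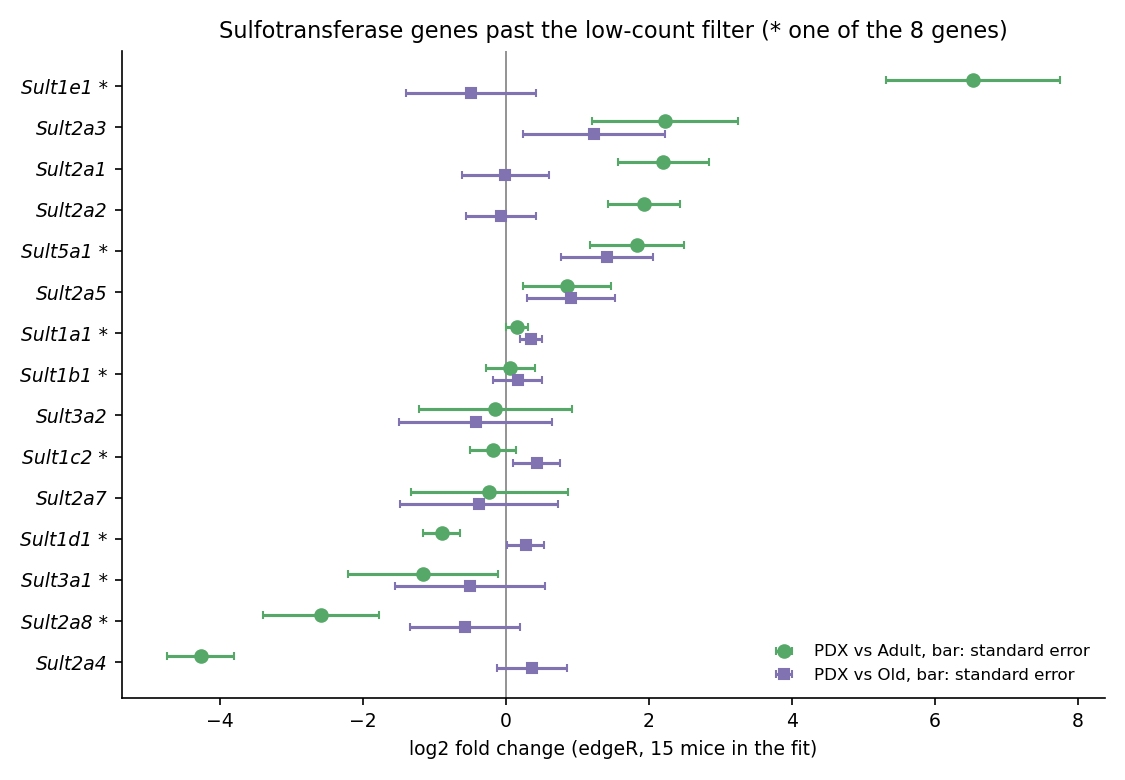
Log2 fold changes (x axis) of 15 cytosolic sulfotransferase genes (y axis, the 8 genes marked with a star) between PDX and Adult (circles) and between PDX and Old (squares), with standard errors as bars, from the edgeR fit of 15 mice. Sult1e1 lies farthest to the right between PDX and Adult (6.53), Sult2a4 farthest to the left (-4.27), and the values between PDX and Old run from -0.57 (Sult2a8) to 1.41 (Sult5a1). Sult2a6 and Sult4a1 are left out because Old and PDX mice had at most 2 read pairs of Sult2a6, and Adult mice at most 2 of Sult4a1.

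The summed level of the 21 genes was 910 ± 176 CPM per kb (SD, n = 5) in Adult, 1383 ± 497 in Old and 1453 ± 252 in PDX, and all 5 PDX mice (1215 to 1862) were above the highest Adult mouse (1147). Without O2 and O5 the Old mean was 1726 ± 214 CPM per kb (n = 3). Sult1e1 made up between 0.0134% and 0.0534% of the sum in Adult mice. It made up 18.0% in O5, 4.82% in O2, 4.72% in P1, 5.66% in P2 and 2.02% in P3, and under 1% in the other 22-month mice. Sult2a8 went from 15.6% ± 4.75 (SD, n = 5) of the sum in Adult to 2.24% ± 1.76 in Old and 1.57% ± 0.104 in PDX. Sult2a1 went from 10.9% ± 8.69 to 35.6% ± 8.57 and 35.4% ± 2.25. Sult1a1 held 34.1% ± 5.45, 20.2% ± 3.71 and 23.9% ± 4.27.

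**Figure D3:**
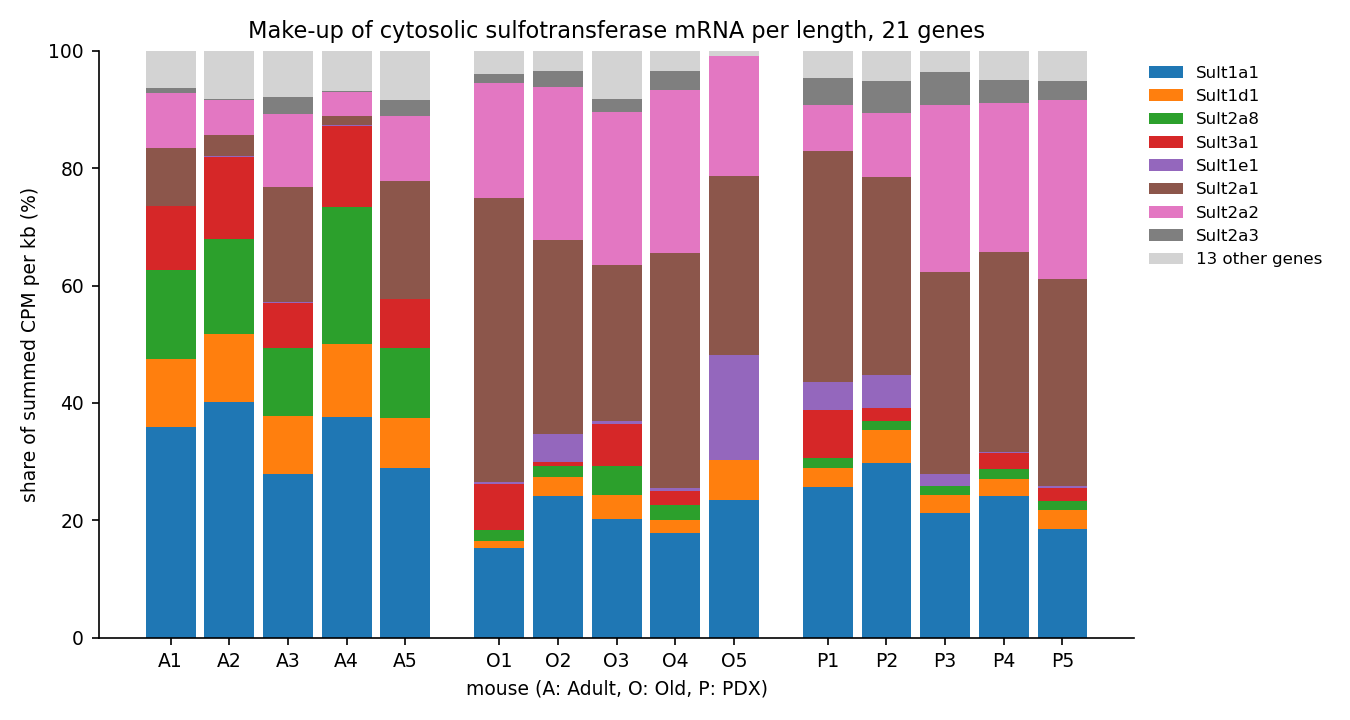
Share of each gene in the summed CPM per kb of 21 cytosolic sulfotransferase genes (y axis, percent) in each mouse (x axis), stacked, with 8 genes named and 13 others in grey. Sult2a8 and Sult3a1 take visible parts of the Adult bars and thin parts of most 22-month bars, Sult2a1 and Sult2a2 together take a larger part of each 22-month bar than of any Adult bar, and Sult1e1 is seen best in O5, with 18.0%.

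Genes that supply the sulfonate donor were compared next. Of 8 genes of PAPS synthesis, transport and PAP removal, 1 rose between PDX and Adult and 0 fell, beside 2.66% of all genes called. That gene was Papss1, 1 of the 2 PAPS synthases, at 7.88 ± 1.25 CPM (SD, n = 5) in Adult, 23.2 ± 9.01 in Old and 26.9 ± 3.15 in PDX (1.77, SE 0.27, adjusted p = 0.00294 in edgeR). Papss2, the more abundant synthase in liver, was 354 ± 56.2, 209.7 ± 80.2 and 338 ± 83.4 CPM (-0.06, adjusted p = 0.924). Of 9 genes that make sulfate from cysteine, 0 were called between PDX and Adult (2.66% of all genes), where their median difference was -0.44 (log2). Between Old and Adult, where 6.78% of all genes were called, 2 were lower. These 2 were Suox, sulfite oxidase (275 ± 56.0 CPM in Adult and 109 ± 67.3 in Old), and Ethe1, persulfide dioxygenase (96.6 ± 39.4 and 34.4 ± 21.0 CPM). The Old means without O2 and O5 were 154 ± 34.7 CPM for Suox (n = 3, adjusted p = 0.0209 in edgeR), 45.2 ± 21.1 CPM for Ethe1 (adjusted p = 0.0658) and 263 ± 28.3 CPM for Papss2. Of 5 sulfatases and activators found in the table, 0 were called, and the 2 most abundant, Arsb (37.3 ± 1.77 CPM in Adult and 41.4 ± 4.01 in PDX) and Sumf1 (31.5 ± 1.54 and 32.6 ± 3.38 CPM), kept adjusted p values of 0.818 and 0.854. Of 17 Golgi sulfotransferases tested, 0 were called between PDX and Adult, with a median of 0.13. Without O2 and O5, in the fit that called 24.6% of all genes between PDX and Adult, 2 PAPS genes were higher and 1 lower, 6 cysteine genes lower, 1 sulfatase gene higher, and of 18 Golgi genes then tested 5 were higher and 1 lower. Between Old and Adult that fit called 1 cysteine gene lower, beside 7.12% of all genes.

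Regulators and companion genes of sulfotransferases showed a mixed picture. Of 16 nuclear receptors and factors of drug-metabolizing genes tested, 1 was called between PDX and Adult, beside 2.66% of all genes. This was Nr1i3, which encodes the xenobiotic receptor CAR and fell from 394 ± 96.9 to 191 ± 52.1 CPM (-1.04, SE 0.26, adjusted p = 0.0432 in edgeR). Of 9 genes known as targets of CAR and PXR, 0 were called, although their median of -1.43 (log2) lay below that of all genes, -0.01, and 6 were lower without O2 and O5 (24.6% of all genes called). The most abundant of them were Cyp3a11 (-2.33, SE 1.16, adjusted p = 0.269) and Cyp2c29 (adjusted p = 0.345). Of 8 genes of estrogen handling tested, Cyp1b1 rose (0.476 ± 0.230 to 2.46 ± 0.728 CPM, adjusted p = 0.0200) and Cyp1a2 fell (1008 ± 111 to 254 ± 42.7 CPM, adjusted p = 0.0375), both encoding enzymes that hydroxylate estradiol. Esr1, the main estrogen receptor of liver, was at 26.5 CPM in Adult and 45.8 CPM in PDX (0.79, adjusted p = 0.227). Of 9 female-biased genes 1 rose, Cux2 (30.9 ± 11.5 to 77.4 ± 27.0 CPM, adjusted p = 0.0216), and of 7 male-biased genes tested 1 fell, Slco1a1 (17.3 ± 11.8 to 0.246 ± 0.206 CPM, adjusted p = 0.00174). Slco1a1 was near 0 in PDX and passed the filter through mice in which it was high, so its call is a description. The share of 2.66% of all genes applies to the estrogen and sex-biased lists too. Without O2 and O5, with 24.6% of all genes called, 2 regulators were higher and 3 lower, 2 estrogen genes higher and 3 lower, 5 female-biased genes higher and 3 lower, and of 9 male-biased genes then tested 3 were higher and 4 lower.

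Of 14 acute-phase genes, 10 rose and 0 fell between PDX and Adult, beside 2.66% of all genes called. Their median log2 fold change was 1.79 against -0.01 for all genes, and 14 rose without O2 and O5, where 24.6% of all genes were called. They included Saa2 (18.3 ± 8.63 to 1828 ± 3625 CPM, of which P2 alone had 8308, adjusted p = 0.0285), Saa1 (adjusted p = 0.0314), Lcn2 (15.1 ± 7.08 to 500.0 ± 405 CPM, adjusted p = 0.00182) and Orm2 (adjusted p = 0.0381). The summed acute-phase level was 15043 to 17430 CPM in Adult, 20814 to 82970 CPM in Old and 28885 to 89241 CPM in PDX, with Fgb or Hpx as the most abundant gene and none at 0. The highest sums were those of P2 and O5, which had the second highest and the highest Sult1e1. O2, with the fourth highest Sult1e1, had 22432 CPM, below P4, which had the lowest Sult1e1 of the 22-month mice and 35796 CPM. The part of the acute-phase level in the Sult1e1 difference was not tested.

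Markers of other cells also differed between the ages. Of 7 neutrophil and myeloid progenitor markers, 3 rose between PDX and Adult, where 2.66% of all genes were called. They were Prtn3 (0.253 ± 0.224 to 59.8 ± 43.3 CPM, adjusted p = 0.000904), Mpo (adjusted p = 0.0204) and Elane (adjusted p = 0.0153). The sum of the 7 markers was 2.35 to 6.16 CPM in Adult, 18.4 to 223 CPM in Old and 39.3 to 191 CPM in PDX. Of 7 Kupffer and macrophage markers 1 rose (Gpnmb, 0.349 ± 0.219 to 17.9 ± 16.1 CPM, adjusted p = 0.00349), of 5 B and plasma cell markers 1 (Jchain, adjusted p = 0.0235), and of 5 cholangiocyte markers tested 1 (Spp1, adjusted p = 0.0333). Prtn3 and Gpnmb were near 0 in Adult and passed the filter through the 22-month mice. Their calls are a description, and no test is read from them. Of the markers of hepatocytes, endothelium, stellate cells and fibroblasts, T and NK cells, erythroid cells, adipocytes and pancreatic acini, 0 were called, with 1 of 4 adipocyte and 1 of 4 acinar genes past the filter. The summed acinar markers, with Cela1 the most abundant, were 166 CPM in O3, 201 CPM in O4 and 46.5 CPM in P5, with none at 0, against 16.7 to 18.3 CPM in Adult mice and 2.81 to 23.9 CPM in the other 22-month mice. Between Old and Adult, where 6.78% of all genes were called, markers rose for 7 of 7 neutrophil, 2 of 7 macrophage, 3 of 5 B cell and 3 of 6 stellate genes. Without O2 and O5 (7.12% of all genes) these numbers were 3, 2, 3 and 1, and 2 hepatocyte markers rose. The 4 acinar markers passed the filter of that fit with high sums in O3, O4 and P5 alone, and the sum of O1 was below every Adult mouse, so no count is given for them. Between PDX and Adult without these mice (24.6% of all genes), all 7 neutrophil, all 7 macrophage, all 5 B cell, 3 of 5 T and NK cell and 2 of 5 cholangiocyte markers rose. In that fit hepatocyte and stellate markers each had 2 higher and 1 lower, and 2 endothelial markers were lower. Whether these cells carry any of the sulfotransferase mRNA was not tested.

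The genes whose pattern over the 15 mice was most like that of Sult1e1 were sought among 12015 genes whose log2 CPM averaged 1 or more. By Pearson r of log2 CPM, the 6 most alike were Saa3 (r = 0.96), Nfkbiz (0.94), Ly6d (0.94), Gpnmb (0.93), Btg2 (0.93) and Lcn2 (0.93). The 4 least alike were Hyi (-0.94), Il1rap (-0.93), Gas1 (-0.93) and Hnf1aos1 (-0.92). The split between Adult and 22-month mice enters these values. Within the 10 mice of 22 months, r was 0.85 for Saa3, 0.87 for Nfkbiz, 0.79 for Ly6d, 0.70 for Gpnmb, 0.86 for Btg2 and 0.70 for Lcn2, and -0.85, -0.79, -0.82 and -0.85 for Hyi, Il1rap, Gas1 and Hnf1aos1. Over the 8 mice of 22 months other than O2 and O5, r was 0.78 for Saa3, 0.79 for Nfkbiz, 0.68 for Ly6d, 0.50 for Gpnmb, 0.79 for Btg2 and 0.63 for Lcn2, and -0.80, -0.67, -0.70 and -0.74 for Hyi, Il1rap, Gas1 and Hnf1aos1. Saa3 was at 59.9 CPM in O5, 24.6 in P2, 37.0 in P1 and 38.8 in O2, the 4 mice with the most Sult1e1 in falling order, and at 2.73 to 5.24 CPM in the Adult group. These values are a description, since both genes of each pair come from the same libraries. Of the 13 other sulfotransferases compared, Sult2a8 was the least like Sult1e1 over 15 mice (r = -0.77), Sult2a7 was over the 10 mice of 22 months (-0.75, against -0.67 for Sult2a8), and none was among the 6 most alike.

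**Figure D4:**
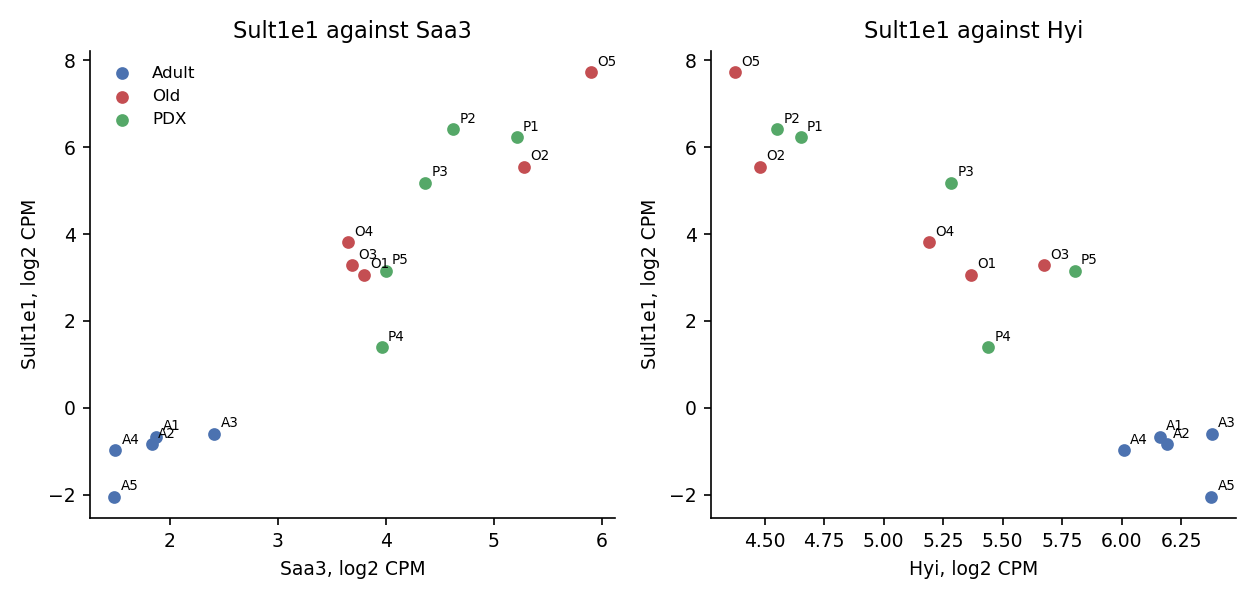
Sult1e1 (y axis, log2 CPM) against Saa3 (left) and Hyi (right, x axis, log2 CPM) in each mouse, coloured by group. The 22-month mice spread along a rising line with Saa3 (r = 0.85, n = 10) and a falling one with Hyi (r = -0.85, n = 10), and the Adult mice form a group of their own at the end with low Sult1e1.

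Of 13 protein-coding genes that lie within 250 kb of Sult1e1 or overlap that window, Sult1e1 included, 4 passed the filter, and the other 3 of these were Sult1d1, Sult1b1 and Ugt2a3. Ugt2a3, which encodes a glucuronosyltransferase, was 312 ± 21.1 CPM (SD, n = 5) in Adult, 141 ± 69.7 in Old and 152 ± 25.9 in PDX (-1.04 between PDX and Adult, adjusted p = 0.0827 in edgeR). Caseins Csn1s1, Csn1s2a and Csn1s2b, on the other side of Sult1e1, had 0 read pairs in all mice, and Csn2 had at most 2. None of the 3 expressed neighbours was higher in PDX than in Adult at the threshold.

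The labels give a frailty index score and a treadmill distance for each mouse, which the choice of the 8 genes did not use. In the 10 mice of 22 months the index ran from 0.06 (P1) to 0.56 (O5) and the distance from 33.9 m (O2) to 78.8 m (P3). Of 16 relations, 1 passed adjustment. Sult5a1 was lower at a higher index (Pearson r = -0.90, permutation p = 0.00297, adjusted p = 0.0475, and Spearman rho = -0.62, permutation p = 0.0613, adjusted p = 0.771). O5 had the index farthest from the median, and O4 and P1 were tied after it. Without O5 and O4 r was -0.43, and without O5 and P1 it was -0.46. Without O5 alone r was -0.65 (permutation p = 0.0594, adjusted p = 0.685), and without O4 alone it was -0.90 (permutation p = 0.0161, adjusted p = 0.258), so the size of r rested on O5. The adjusted p was above 0.05 in 7 of the 10 repeats that left out 1 mouse each, those without O1, O3, O4, O5, P1, P3 or P5. For Sult1e1 no relation to the index passed (r = 0.24, permutation p = 0.526, adjusted p = 0.701, rho = -0.04, permutation p = 0.927), with r = -0.65 without O5 and O4 and -0.38 without O5 and P1, and none to the distance (r = 0.10, permutation p = 0.789, adjusted p = 0.798, rho = 0.18, permutation p = 0.633). The adjusted p of Pearson's r was at least 0.233 for the other 15 relations. With the group means of Old and PDX removed from both measures, an alternative added after the data were seen, r of Sult5a1 with the index was -0.91 (exact permutation within groups, two-sided, p = 0.00590, adjusted p = 0.0944), so 0 of 16 relations passed. Without O5 and O4 this r was -0.59.

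**Figure D5:**
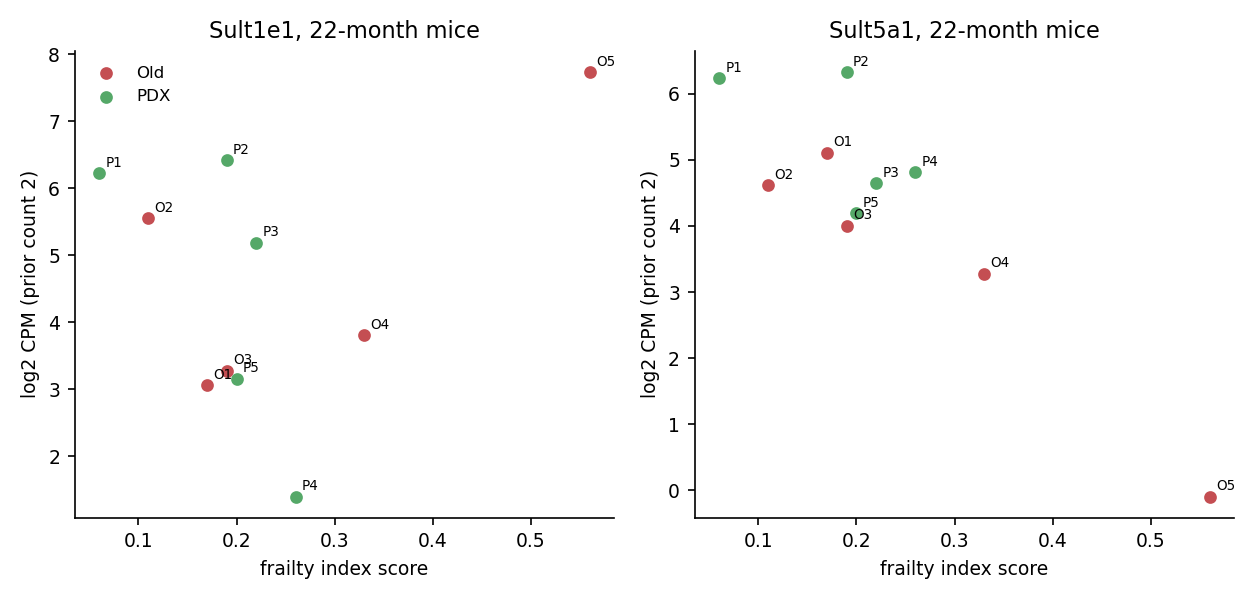
Level of Sult1e1 (left) and Sult5a1 (right) as log2 CPM (y axis) against the frailty index score (x axis) in the 10 mice of 22 months, coloured by group. O5, with an index of 0.56, has the lowest Sult5a1 and the highest Sult1e1, and without O5 and O4 the r of Sult5a1 is -0.43.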

How the data were processed

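Poly(A) RNA of 1 liver piece per mouse was sequenced from 15 mice. The authors aligned read pairs to mm10 with STAR (version 2.6.0c) and deposited counts of pairs per Ensembl 100 gene made with featureCounts (Subread 1.6.2), without normalization. The authors also deposited log2 values from the variance stabilizing transformation (VST) of DESeq2 (version 1.23.10). The labels give 9 weeks of gavage and the series design gives 8. No column lacked a mouse.

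Symbols of 55104 of 55450 gene IDs, coordinates and exon lengths came from GENCODE M21. Counts were fitted with edgeR 4.0.16 in R 4.3.3: filterByExpr (minimum count 10, minimum total 15), TMM scaling, quasi-likelihood tests from a single model of the 15 mice with a term for each group, and Benjamini-Hochberg adjustment over all genes tested. The threshold was 0.05, and 0.25 between PDX and Old, as the authors used. The mice are separate animals. CPM used TMM-scaled library sizes, and log2 CPM a prior count of 2. Stretches of 50 bases of the exons were searched in all transcripts. Permutation tests of correlations were two-sided (100000 resamples, seed 1), run with scipy 1.17.1, numpy 2.4.6 and pandas 2.3.3 under Python 3.11.15. The edgeR, DESeq2 and limma fits of Old versus Adult were tested on simulated counts with the same spread in all mice.

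The members, the 22 gene lists and the marker lists among them were chosen with earlier results of these data known. Genes named are the 8 members, of each list those past the threshold (at most 4 by size) or otherwise the most abundant, the genes most and least like Sult1e1, and its neighbours within 250 kb. Single genes beyond that rule, namely Papss2, Esr1, Sult2a1 and Sult2a2, were chosen after their values were seen. Alternatives were DESeq2 1.42.0, limma 3.58.1 on the VST values, other scalings and filters, fits of 2 groups, a replicate block, and fits without single mice or without O2 and O5. The list counts without O2 and O5 and the correlations with group means removed were added after the data were seen, as were the Old means and orders without them and the r without O5 and P1. Euthanasia batches were not analysed here.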

Additional observations from a re-analysis of the deposited data

Results flagged for a closer look

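In 4 of 24 sets of 5 mice (8 genes in 3 groups), 1 mouse lay far from the other 4 by the ratio of its gap to the range, on the log2 CPM scale, where chance gives about 1 in 20. Sult1e1 was lowest in Adult mouse A5, at 0.172 CPM from 6 read pairs. Sult2a8 was highest among Adult mice in A4, at 562 CPM, and lowest among Old mice in O5, at 0.325 CPM from 9 read pairs. Sult3a1 was lowest among PDX mice in P3, at 0.757 CPM from 24 read pairs.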

How the results depend on the processing

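Between PDX and Adult, 1 of the 8 genes was called. The number was 4 with the Wald test of DESeq2, 3 with that test without independent filtering, 4 with only the 10 mice of both groups in the fit and 4 without O2 and O5. Leaving out single mice gave 1 to 4, with 2 without O2 and 4 without O5. The added calls were among Sult1d1, Sult2a8 and Sult5a1. Other scalings, no filter and limma on the VST values gave 1. The number of all genes called between PDX and Adult, 420, ranged from 166 (without A5) to 4529 (only both groups), with 1388 in DESeq2 and 4004 without O2 and O5. It was 1097 in DESeq2 without independent filtering, 1766 without O2 and 1744 without O5. Each fit that called more of the 8 genes thus also called more of all genes. Between Old and Adult the number of all genes called, 1072, ranged from 105 (only both groups) to 2605 (DESeq2). Between PDX and Old it was 0 or 1. Some small differences turned sign. Between PDX and Old, without O2 and O5 Sult1e1 was 1.97 and Sult1b1 -0.31, and on the VST values Sult2a8 was 0.74 and Sult3a1 0.17. Leaving out single mice gave -0.92 to 1.07 for Sult1e1, -0.050 to 0.38 for Sult1b1 and -1.14 to 0.16 for Sult3a1 between PDX and Old, and -0.017 to 0.14 for Sult1b1 between PDX and Adult. The cause was not tested. Of 10 genes named as most or least like Sult1e1, 3 were also named by Spearman's rho. The number of relations with the frailty index or treadmill distance past adjustment was 0 to 2 without single mice and 0 with the group means removed. In a fit with the replicate number as a block, Sult1b1 between PDX and Adult was -0.016, the number of the 8 genes called stayed 1, and the numbers of all genes called were 237 between Old and Adult, 316 between PDX and Adult and 0 between PDX and Old. Deviations of same-numbered mice had a mean r of -0.168, 0.092 and 0.031 in Old versus Adult, PDX versus Old and PDX versus Adult. For mice of other numbers the mean r was 0.0435, -0.0225 and -0.0078 in the same order. Of 5 mice, 0, 2 and 2 correlated best with their own number. The labels name no pairs, and 5 mice per group are too few to exclude a batch shared by number. Levels under about 20 read pairs, as of Sult1e1 in Adult, are limited by counting.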
